A study of Mus musculus with 7 samples.

Results

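The guanylate-binding proteins (Gbp) and the immunity-related GTPases (Irg) are 2 families of interferon-induced GTPases. Their RNA was followed over cortex and hippocampus of mice from a study of an Alzheimer's disease model, which asked what changes when CD38, a surface enzyme that consumes NAD, is targeted. The genes were chosen by family and by name: Gbp2, Gbp3, Gbp5, Gbp6, Gbp7, Gbp9, Irgm1, Irgm2, Igtp and Iigp1. Of these 10 genes, 8 were measured among 20859 genes in all, and Gbp6 and Gbp9 are not analysed here. The assay, bulk mcSCRB-seq, reads only the 3' end of each transcript and marks every well by its own barcode. Long transcripts are therefore not counted more often than short ones. Levels of different genes are set side by side as CPM, the counts per 1000000 counts of a well. Such comparisons between genes also rest on the annotation and the counting, which the sources used here do not state.

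The samples were 47 wells of 24 mice in 7 library pools, each pool holding wells of several mice. The study holds 3 groups. Wild-type mice (WT) had received PBS, with 9 wells in cortex and 8 in hippocampus. Mice labelled FAD had received either IgG (FAD IgG, 7 wells per region) or the treatment labelled CD38 (FAD CD38, 7 wells per region). The transgenes behind the label FAD, their promoters, the ages of the mice, the dose and the time of treatment are not stated in the sources used here. Genotype and injection cannot be told apart against WT, because WT mice had PBS and every FAD mouse had IgG or CD38. For 1 mouse of pool 8 the well name gave IgG and the sample sheet CD38, and its 2 wells were left out of the comparisons, so that 6 pools held both FAD IgG and WT wells. Total counts per well ran from 1270918 to 5101368 with a median of 3058508, and ribosomal RNA genes took 3.15% to 20.6% of a well's counts, over 10% in 6 wells. The regions matched their labels: 6 of 6 hippocampal markers were higher and 6 of 6 cortical markers lower in WT hippocampus than in WT cortex.

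Interferons, interferon gamma above all, signal through receptors and JAK kinases to switch on both GTPase families. Gbp proteins are large GTPases related to the dynamins that assemble on the membranes of vacuoles holding microbes and on microbes themselves, and Gbp2 and Gbp5 are known for links to inflammasome activation. Of the Irg proteins, Irgm1, Irgm2 and Igtp (also called Irgm3) are regulatory members that sit on the cell's own membranes, and Iigp1 (also called Irga6) is an effector that is loaded onto foreign vacuoles with the help of the ATG8 conjugation machinery of autophagy. In the brain, microglia and endothelial cells are among the cells that respond to interferon.

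The promoter sequences of the members are shown first, since interferon acts on these genes through short elements close to the start. RefSeq windows (GRCm38.p6) from 250 bases before to 50 bases after the annotated start were present for 7 of the 8 measured genes, and none was used for Iigp1. Each stretch below is printed 5′ to 3′ on the strand of the gene, with matches to an ISRE-like motif in capitals: GAAA, any 2 letters and GAAA, searched on both strands (TTTC, any 2 letters and TTTC when read on the other). Gbp2, Gbp3, Gbp5 and Gbp7 stand in 1 cluster on chromosome 3, and the Irg genes shown stand on chromosome 11.
Gbp2, chr3:142620579-142620638, plus strand: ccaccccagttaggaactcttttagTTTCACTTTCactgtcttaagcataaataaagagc
Gbp3, chr3:142559974-142560039, plus strand: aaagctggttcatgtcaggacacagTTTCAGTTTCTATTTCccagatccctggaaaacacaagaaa
Gbp5, chr3:142496744-142496803, plus strand: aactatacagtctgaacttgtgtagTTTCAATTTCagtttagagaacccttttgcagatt
Gbp7, chr3:142530258-142530317, plus strand: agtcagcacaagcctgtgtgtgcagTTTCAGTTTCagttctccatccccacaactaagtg
Irgm1, chr11:48871421-48871475, minus strand: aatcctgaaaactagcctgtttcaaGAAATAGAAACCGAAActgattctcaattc
Irgm2, chr11:58214888-58214947, plus strand: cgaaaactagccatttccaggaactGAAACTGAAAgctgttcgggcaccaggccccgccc
Igtp, chr11:58199497-58199555, plus strand: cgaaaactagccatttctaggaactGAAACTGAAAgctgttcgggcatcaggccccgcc

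All 7 genes held the ISRE-like motif, in 7 of their 8 windows (the second annotated start of Gbp3 had no match), against 3.44% of 32851 windows of the same length in the whole table. The 4 Gbp genes carried it in the TTTC orientation and the 3 Irg genes in the GAAA orientation. In Gbp3 and Irgm1, 2 matches overlapped by 4 letters, which gives the longer runs of capitals above. Outside Gbp5, where the match lay at -165 to -156 from the start, every match lay within -64 to -15. A GAS-like motif, TTCNNNGAA, which reads the same on both strands in its fixed letters and does not share a position with the capitals, was found in Gbp5, Gbp7, Irgm2 and Igtp, against 8.3% of all windows. The stretches of Irgm2 and Igtp shared a run of 29 identical bases, and those of Gbp3 and Gbp7 one of 13. Of 10 further genes of these and related GTPase families 6 held the ISRE-like motif and 4 the GAS-like motif. Among other interferon-stimulated genes 10 of 23 held the ISRE-like motif, and of 11 genes listed for ATG8 conjugation 0 did. The GAS-like motif was found in 5 of those 23, in 2 of those 11 and in 4 of 11 genes of interferon gamma signalling. A match is a description of letters and not evidence of a bound site.

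**Figure D1:**
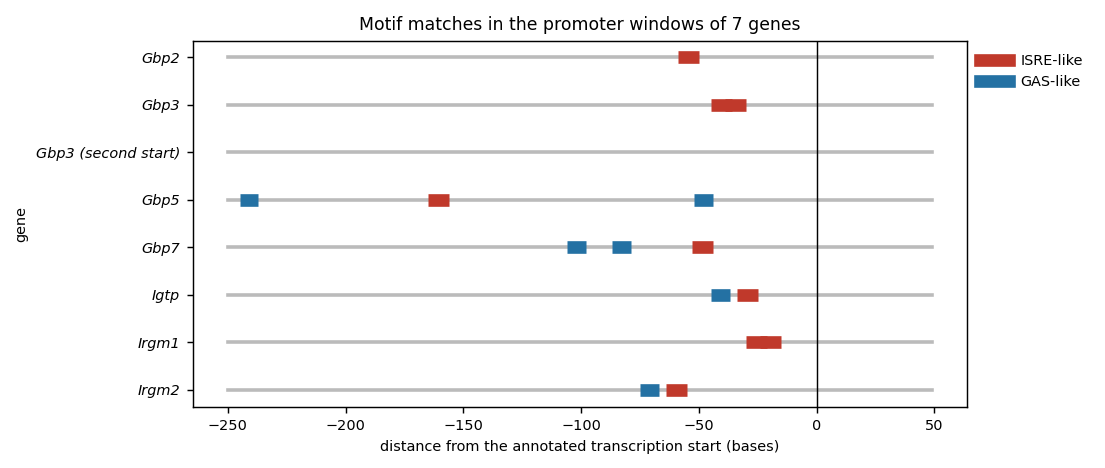
Positions of ISRE-like (red) and GAS-like (blue) motif matches along the promoter windows of 7 genes, with distance from the annotated start in bases on the horizontal axis and 1 line per window. In 6 of 7 genes the ISRE-like matches lie between -64 and -15, and the second start of Gbp3 has none.

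In WT brain the mean levels of the 8 genes lay between 0.691 CPM (Gbp5 in hippocampus) and 9.04 CPM (Irgm1 in hippocampus), and Irgm2 was at 0 in 2 of 9 cortical and 1 of 8 hippocampal WT wells. Summed over the 8 genes, WT cortex held 26.9 to 38.2 CPM, FAD IgG cortex 54.5 to 73.5 CPM and FAD CD38 cortex 43.8 to 73.5 CPM, so every FAD well stood above every WT well. The sums in hippocampus were 20.99 to 38.0 CPM in WT, 47.9 to 99.6 CPM in FAD IgG and 41.0 to 73.5 CPM in FAD CD38, again with no overlap between WT and FAD. The share of all genes without such overlap was not computed, here or for the single genes below, so these separations are descriptions only. Irgm1 had the highest mean level in each of the 6 groups, with 26.2% of the sum in WT cortex and 32.2% in WT hippocampus. In WT cortex, Igtp (mean 7.05 CPM, 21.05% of the sum) and Gbp7 (6.86 CPM, 20.5%) followed, and they did not differ beyond their SD of 2.63 and 2.39 CPM (n = 9). Gbp2 (4.37 ± 0.890 CPM) and Gbp3 (3.54 ± 1.34 CPM) came next and were also within 1 SD of each other. Iigp1 (1.15 ± 0.527 CPM), Gbp5 (1.02 ± 0.493 CPM) and Irgm2 (0.741 ± 0.696 CPM) were lowest, with means within 1 SD of each other. The SD describes the spread over wells, and the order of the genes was not tested. The order in FAD IgG hippocampus was Irgm1 (17.8 CPM), Gbp2 (12.9 CPM), Gbp7 (11.4 CPM), Igtp (10.2 CPM) and Gbp3 (8.95 CPM), followed by Iigp1 (4.14 CPM), Gbp5 (3.21 CPM) and Irgm2 (1.59 CPM). Among the first 5 each gap between neighbours was within the larger SD of the 2 genes (n = 7).

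**Figure D2:**
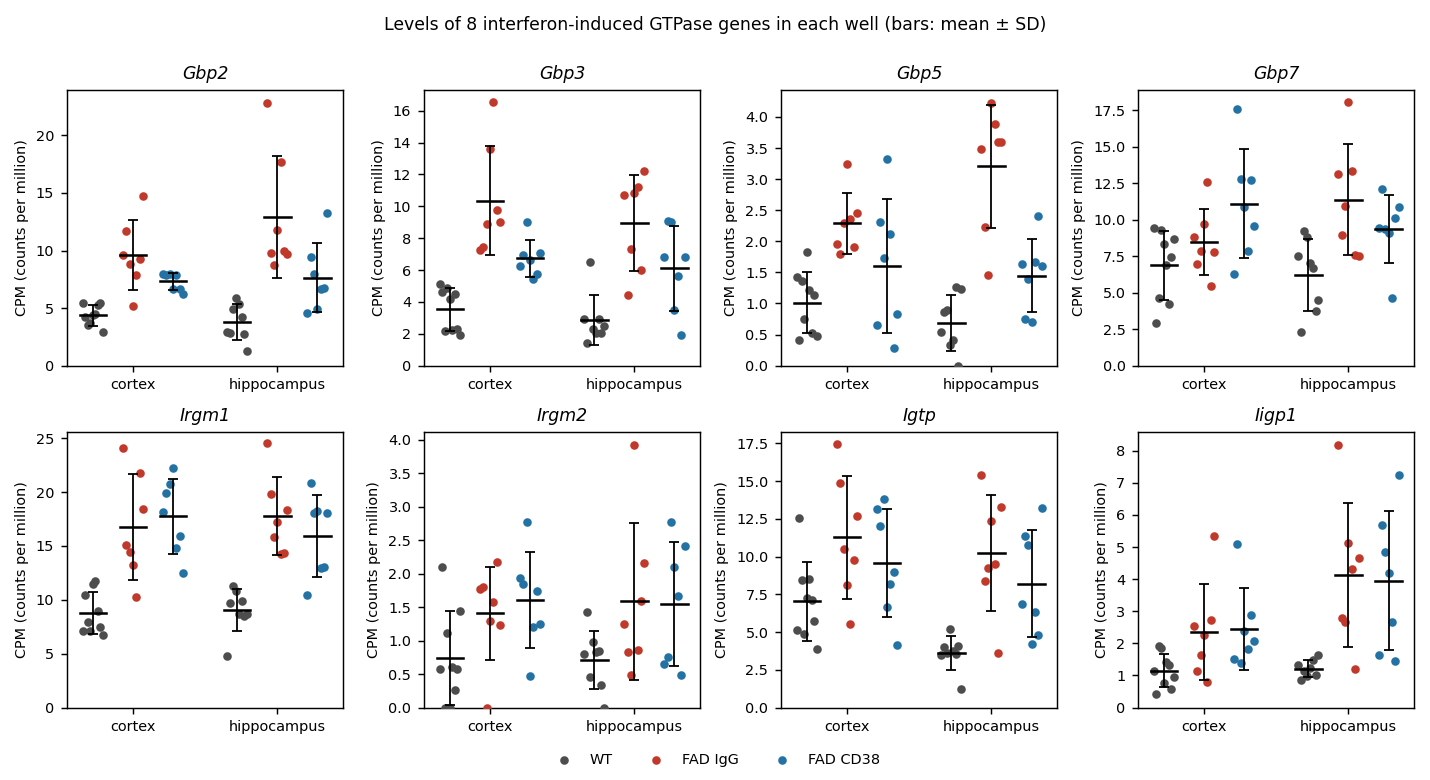
CPM of the 8 measured genes in each well, 1 panel per gene, with wells of WT (grey), FAD IgG (red) and FAD CD38 (blue) grouped by region, and the mean with its SD in black. FAD IgG wells lie above every WT well for Gbp3 in cortex and for Gbp2, Gbp5 and Irgm1 in hippocampus. The share of all genes without overlap was not computed.

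The first comparison asked how FAD mice given IgG differed from WT. In cortex, Gbp2, Gbp3 and Irgm1 were higher in FAD IgG, by 1.82-fold to 2.81-fold, and Gbp7 and Igtp did not pass the test. A gene entered the test when it passed edgeR's filter on low counts, and it was called when its Benjamini-Hochberg adjusted p over all genes tested (edgeR's quasi-likelihood test with pool as a term) was under 0.05. Gbp5, Irgm2 and Iigp1 did not enter it in cortex. Of the 5 genes tested 3 were called higher, where 3.34% of 12968 genes were called higher. The median log2 change was 0.86 over the 5 and 0.01 over all genes tested. Gbp3 passed the filter in cortex only with FAD wells, so that its presence in the test is tied to its being high there. Its call, the count of 3 and the median over the 5 carry that limit.

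Gbp3 had the largest change of these in cortex, with 1.92, 4.16 and 5.13 CPM as the lowest, median and highest WT well and 7.25, 9.02 and 16.5 CPM in FAD IgG. Every FAD IgG well stood above every WT well, and FAD IgG was the higher group in 6 of 6 pools. The log2 change was 1.49 ± 0.25 (SE, adjusted p = 0.000278, edgeR). Gbp2 had 2.89, 4.42 and 5.43 CPM in WT and 5.18, 9.24 and 14.8 CPM in FAD IgG. The lowest FAD IgG well fell inside the WT range, the other 6 lay above it, and the log2 change was 0.95 ± 0.18 (adjusted p = 0.00133, edgeR). Irgm1, whose product restrains the effector Irg proteins, had 6.73, 7.91 and 11.7 CPM in WT and 10.2, 15.1 and 24.1 CPM in FAD IgG. Again 6 of 7 FAD IgG wells exceeded the WT range, with a log2 change of 0.86 ± 0.18 (adjusted p = 0.00374, edgeR). These 3 calls held in each of 16 alternative analyses.

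Gbp7 in cortex had 2.93, 7.43 and 9.40 CPM in WT and 5.43, 7.88 and 12.6 CPM in FAD IgG. The groups overlapped widely, and the log2 difference was 0.42 with a 95% interval of -0.01 to 0.86 (adjusted p = 0.351, edgeR). Igtp had 3.85, 7.10 and 12.6 CPM in WT and 5.51, 10.5 and 17.4 CPM in FAD IgG. Only 3 of 7 FAD IgG wells were above the highest WT well, and the log2 difference was 0.54 with an interval of 0.09 to 0.98 (adjusted p = 0.206, edgeR).

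In hippocampus, Gbp2, Gbp3, Gbp7, Irgm1 and Igtp were higher in FAD IgG, by 1.95-fold to 3.43-fold. The share of all genes called higher was 4.48% of 12728. The median log2 change was 1.50 over these 5 and 0.00337 over all genes tested. Iigp1 was called too, but it had a median of 3.5 counts per WT well and passed the filter through the FAD groups, so that its presence in the test is tied to its being high there. Gbp3 had a median of 6.5 counts per WT hippocampal well, with 6.52 CPM in the highest and 2.95 CPM in the next. It too passed the filter in this region through the FAD groups, and its call and the median over the 5 carry that limit. Gbp2, Gbp7, Irgm1 and Igtp had medians of 12 to 29 counts per WT well. Of these Gbp2, with 1.23 to 5.89 CPM in WT wells around a median of 3.57 CPM, also passed the filter only with FAD wells. Its call carries the same limit. Gbp5 and Irgm2 did not enter the test.

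Gbp2 separated the groups in hippocampus, with 1.23, 3.57 and 5.89 CPM in WT and 8.75, 9.99 and 22.8 CPM in FAD IgG. No well overlapped, FAD IgG was higher in 6 of 6 pools, and the log2 change was 1.78 ± 0.28 (adjusted p = 0.000198, edgeR). Irgm1 had 4.83, 9.21 and 11.2 CPM in WT and 14.2, 17.2 and 24.6 CPM in FAD IgG. It too had no overlap, with a smaller log2 change of 1.01 ± 0.21 (adjusted p = 0.00339, edgeR). For Gbp3, WT hippocampus had 1.43, 2.38 and 6.52 CPM and FAD IgG 4.46, 10.7 and 12.2 CPM. A single high WT well made the ranges overlap, 5 of 7 FAD IgG wells lay above it, and the log2 change was 1.66 ± 0.34 (adjusted p = 0.00339, edgeR).

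Igtp in hippocampus had 1.23, 3.66 and 5.23 CPM in WT and 3.59, 9.48 and 15.4 CPM in FAD IgG. Of the 7 FAD IgG wells 6 lay above the WT range and 1, at 3.59 CPM, lay inside it, with a log2 change of 1.50 ± 0.30 (adjusted p = 0.00248, edgeR). Iigp1, the effector, had 0.859, 1.18 and 1.65 CPM in WT and 1.20, 4.31 and 8.19 CPM in FAD IgG. Likewise 6 of 7 FAD IgG wells exceeded all WT wells, and the log2 change was 1.83 ± 0.40 (adjusted p = 0.00565, edgeR), a call lost without pool 5 (adjusted p = 0.0678). Gbp7 had 2.29, 6.87 and 9.22 CPM in WT and 7.54, 10.9 and 18.1 CPM in FAD IgG. The ranges overlapped in 3 of 7 FAD IgG wells, and the log2 change of 0.97 ± 0.26 (adjusted p = 0.0297, edgeR) was the least stable of the 6. It lost its call without each of pools 5, 6, 9, 10 and 11 and without the wells of high ribosomal RNA share (adjusted p up to 0.122). The other 4 calls held in each of the 16 alternatives.

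**Figure D3:**
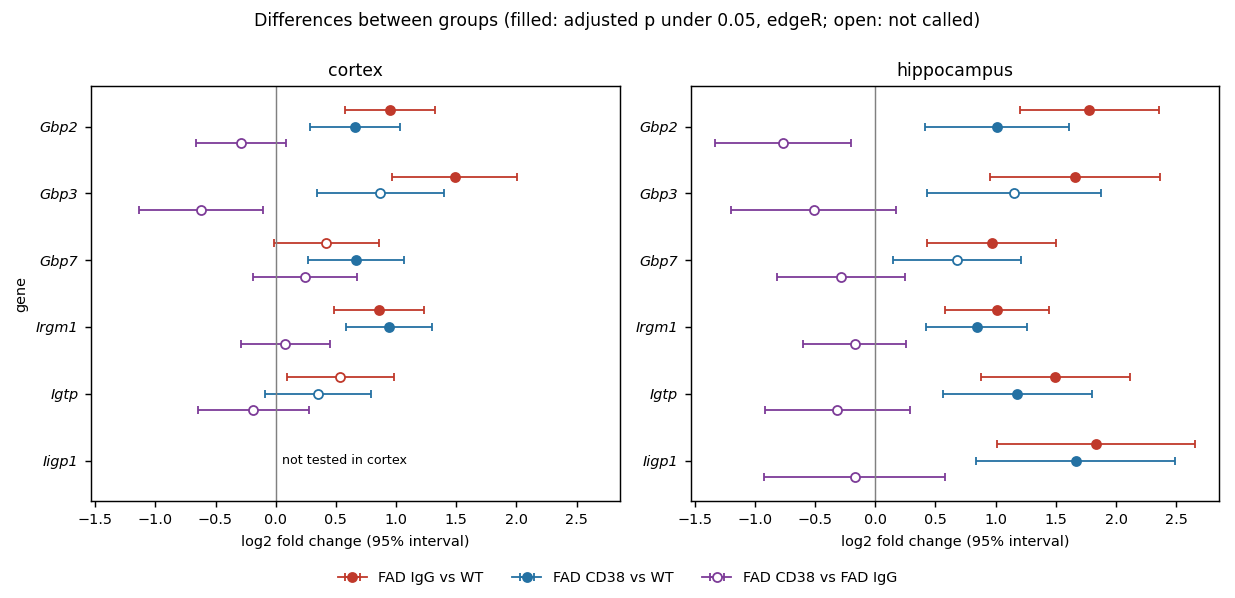
Log2 fold change with its 95% interval for each tested gene in cortex (left) and hippocampus (right): FAD IgG against WT (red), FAD CD38 against WT (blue) and FAD CD38 against FAD IgG (purple), with filled points for an adjusted p under 0.05 in edgeR. Red points are filled for 3 of 5 genes in cortex and for every gene shown in hippocampus, and no purple point is filled. Gbp3 in both regions, and Gbp2 and Iigp1 in hippocampus, passed the filter on low counts only with FAD wells.

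The members with counts too low for the filter were compared over mice with two-sided exact permutation tests of CPM, 15 tests in all, whose p-values are given unadjusted. Gbp5 in hippocampus had 0, 0.698 and 1.26 CPM in WT and 1.46, 3.59 and 4.22 CPM in FAD IgG. Every FAD IgG well stood above every WT well (exact permutation p = 0.000155, the smallest this design can give), and edgeR with no filter on low counts gave a log2 change of 2.07 ± 0.40 (adjusted p = 0.00104). In cortex Gbp5 had 0.419, 1.14 and 1.82 CPM in WT and 1.80, 2.30 and 3.24 CPM in FAD IgG. The groups touched in 1 well (exact permutation p = 0.00035), but the edgeR fit with no filter did not call it (adjusted p = 0.132). These values rest on 20 to 70 counts per group, and 5.99% of 50-base stretches in the last 500 bases of Gbp5 also occur in other genes (3.99% for Irgm1 and 0% for the other measured members).

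Iigp1 in cortex had 0.419, 1.14 and 1.91 CPM in WT and 0.787, 2.27 and 5.33 CPM in FAD IgG. Of 7 FAD IgG wells 4 lay above the WT range (exact permutation p = 0.0212), and edgeR with no filter gave an adjusted p of 0.317. Irgm2 had a WT median of 0.572 CPM in cortex and 0.815 CPM in hippocampus, against 1.57 and 1.24 CPM in FAD IgG. The ranges overlapped in both regions (exact permutation p = 0.0809 and 0.0435), and edgeR with no filter called neither (adjusted p = 0.325 and 0.46). These Irgm2 values rest on 19 to 35 counts per group.

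Markers of microglia and, in part, of astrocytes moved with the same groups. Of 12 microglial genes 10 were called higher in FAD IgG cortex and 11 in FAD IgG hippocampus. Their summed level ran from 397 to 543 CPM in WT cortex, 1062 to 1735 CPM in FAD IgG and 984 to 1829 CPM in FAD CD38, and from 298 to 476 CPM, 1257 to 1728 CPM and 948 to 1700 CPM in hippocampus, with none of the 12 at 0. In bulk tissue more cells of a type and more RNA per cell cannot be told apart, and the part of microglia in the changes of the GTPase genes was not tested. Of 10 astrocyte markers 2 were called higher in FAD IgG cortex, Gfap (log2 change 3.39) and Aqp4 (1.18), and 5 in FAD IgG hippocampus, with Gfap (2.74) and Aqp4 (1.57) again first. Their summed levels overlapped: 2551 to 4330 CPM in WT cortex, 3240 to 5415 CPM in FAD IgG and 3134 to 4933 CPM in FAD CD38, and 2750 to 4222 CPM, 3170 to 4893 CPM and 3275 to 4507 CPM in hippocampus, with none of the 10 at 0. The part of astrocytes was not tested either. For endothelial markers 0 of 11 tested genes were called in cortex and 0 of 10 in hippocampus between FAD IgG and WT. For FAD CD38 against WT, 2 of 11 were called lower in cortex, Itm2a (-0.83) and Slco1a4 (-0.74), and 0 of 10 in hippocampus. Their sums in cortex were 245 to 325 CPM in WT, 220 to 297 CPM in FAD IgG and 184 to 267 CPM in FAD CD38, with none of the 12 listed at 0 in every well. Of 15 T and NK cell markers 13 were in the table. Their sum in hippocampus ran from 3.56 to 10.6 CPM in WT, 10.4 to 16.9 CPM in FAD IgG and 5.60 to 15.3 CPM in FAD CD38. In cortex it ran from 58.2 to 72.6 CPM in WT, 39.8 to 79.1 CPM in FAD IgG and 43.8 to 77.6 CPM in FAD CD38, most of it from Trbc2 (mean 56.3 CPM in WT cortex and 2.01 CPM in WT hippocampus). The 2 of them that entered the test did so in cortex, where Cd4 (-1.02) and Trbc2 (-0.26) were not called for FAD IgG against WT (adjusted p = 0.222 and 0.405, edgeR). In hippocampus the counts over all WT and all FAD IgG wells were 3 and 8 for Cd3e, 3 and 30 for Cd3d, 6 and 32 for Cd3g and 2 and 10 for Cd8a. Cd4 had 4 and 1, and was at 0 in every FAD CD38 hippocampal well. The part of T and NK cells in the result was not tested.

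The second comparison set FAD CD38 against FAD IgG, to ask what the CD38 treatment changed. No member was called in either region, and 0% of all genes were called in cortex and 0% in hippocampus. At an unadjusted p under 0.05 (edgeR) there was 1 member in each region, Gbp3 in cortex and Gbp2 in hippocampus, both lower in FAD CD38, and DESeq2 called 0. The median log2 difference was -0.19 over 5 genes in cortex (-0.0049 over all genes) and -0.30 over 6 genes in hippocampus (0.00549 over all genes), where all 6 values were below 0. The share of all genes below 0 was not computed. In hippocampus 18 of 18 tested interferon-stimulated genes, 10 of 10 oligodendrocyte markers and 2 of 5 other GTPase genes were also below 0, so the sign is not particular to the members.

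Gbp2 in hippocampus had 4.56, 6.75 and 13.3 CPM in FAD CD38, against 8.75, 9.99 and 22.8 CPM in FAD IgG. FAD CD38 was the lower group in 5 of 6 pools, and the ranges overlapped. The log2 difference was -0.77 with a 95% interval of -1.33 to -0.20 (adjusted p = 1, edgeR). Gbp3 in cortex had 5.44, 6.64 and 9.00 CPM in FAD CD38, against 7.25, 9.02 and 16.5 CPM in FAD IgG. It was lower in FAD CD38 in 6 of 6 pools. The log2 difference was -0.62 with an interval of -1.13 to -0.11 (adjusted p = 1, edgeR). Gbp5 in hippocampus, with 0.700, 1.61 and 2.41 CPM in FAD CD38 against 1.46, 3.59 and 4.22 CPM in FAD IgG, was also lower in 6 of 6 pools. Its means were 1.45 ± 0.587 and 3.21 ± 0.988 CPM (exact permutation p = 0.00583), and edgeR with no filter gave a log2 difference of -1.11 ± 0.38 (adjusted p = 1).

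For the other genes and regions every interval from the fits included 0. Gbp2 in cortex had a log2 difference of -0.29 (95% interval -0.66 to 0.09), and Gbp3 in hippocampus one of -0.51 (-1.20 to 0.17). Irgm1 had 0.08 in cortex (-0.29 to 0.45) and -0.17 in hippocampus (-0.60 to 0.26). Igtp had -0.19 (-0.64 to 0.27) and -0.32 (-0.92 to 0.29). Iigp1 had -0.17 in hippocampus (-0.92 to 0.58). Gbp7 differed in sign between the regions, 0.24 in cortex (-0.19 to 0.67) and -0.29 in hippocampus (-0.82 to 0.24). Of the members outside the fits, Gbp5 in cortex had means of 1.61 CPM in FAD CD38 and 2.29 CPM in FAD IgG (exact permutation p = 0.15), Iigp1 in cortex 2.45 and 2.34 CPM (exact permutation p = 0.871), and Irgm2 1.60 and 1.41 CPM in cortex (exact permutation p = 0.615) and 1.55 and 1.59 CPM in hippocampus (exact permutation p = 0.948). Over the mean of both regions, fitted with limma with the wells of a mouse correlated, 0 of 6 members and 0% of all genes were called. Gbp2 (-0.50, interval -0.86 to -0.13) and Gbp3 (-0.50, interval -0.93 to -0.08) were the 2 members at an unadjusted p under 0.05, and the adjusted p of both was 1 in limma.

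The third comparison, FAD CD38 against WT, uses the same WT wells as the first, and its values stand beside those above. In cortex 3 of 5 tested members were called higher, where 3.3% of all genes were. In hippocampus 3 of 5 were, where 4.56% of all genes were. This hippocampal count leaves out Iigp1, which entered the test through the FAD groups. Gbp3 in both regions and Gbp2 in hippocampus also passed the filter only with FAD wells, so both counts carry that limit. Irgm1 in cortex had 12.5, 18.1 and 22.3 CPM in FAD CD38, all above the WT maximum of 11.7 CPM, with a log2 change of 0.94 ± 0.17 (adjusted p = 0.000783, edgeR). Gbp2 (0.66 ± 0.18, adjusted p = 0.0333, edgeR) and Gbp7 (0.67 ± 0.19, adjusted p = 0.0488, edgeR) were the other calls in cortex. Every FAD CD38 well of Gbp2 lay above the WT range, in a narrow span of 6.26 to 7.98 CPM. Gbp3 also had no overlap with WT in cortex, yet its log2 difference of 0.87 ± 0.26 missed the threshold (adjusted p = 0.0508, edgeR), and 8 of 16 alternatives called it. The call of Gbp2 was lost in 8 of 16 alternatives and that of Gbp7 in 9, so that 1 member was left without each of pools 6, 7, 8 and 10, Irgm1 in each case.

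In hippocampus Igtp (log2 change 1.18 ± 0.30, adjusted p = 0.0208), Gbp2 (1.01 ± 0.29, adjusted p = 0.044) and Irgm1 (0.84 ± 0.20, adjusted p = 0.0147) were called higher in FAD CD38 than in WT by edgeR. Iigp1 (1.66 ± 0.40, adjusted p = 0.0137, edgeR) was called too, again as a gene that entered the test through the FAD groups. Igtp had 4.20, 6.84 and 13.3 CPM in FAD CD38, and it was higher than WT in 7 of 7 pools. Iigp1 had 1.45, 4.20 and 7.23 CPM, of which 5 of 7 wells lay above the WT range. Gbp3 (1.15 ± 0.35, adjusted p = 0.0614, edgeR) and Gbp7 (0.68 ± 0.25, adjusted p = 0.147, edgeR) did not pass. The call of Gbp2 was lost in 6 of 16 alternatives, and Gbp3 gained one in 6 of 16. Without pool 5 only Irgm1 was called, and without pool 11 the 2 calls were Igtp and Iigp1. Of the low-count members, Gbp5 in hippocampus (mean 1.45 against 0.691 CPM) gave an exact permutation p of 0.0137 and Iigp1 in cortex (2.45 against 1.15 CPM) one of 0.00323. Irgm2, at 1.60 against 0.741 CPM in cortex and 1.55 against 0.709 CPM in hippocampus, gave exact permutation p-values of 0.0309 and 0.0418. With no filter on low counts edgeR called none of these 4 differences (adjusted p = 0.193 to 0.443).

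The regions were compared within mice. In WT mice Igtp was the 1 member of 5 tested that was called, lower in hippocampus than in cortex in 7 of 8 mice. Of all genes 13.5% were called lower, and 1 call in 5 does not set the members apart from that share. It had 3.85, 7.10 and 12.6 CPM in WT cortex and 1.23, 3.66 and 5.23 CPM in WT hippocampus. The ranges overlapped, and within mice the difference ran from -8.56 to 0.388 CPM. The log2 difference was -1.03 ± 0.19 (adjusted p = 0.00029, edgeR with the mouse as a block), and it held in each of 10 alternatives. Irgm1, of the same regulatory class, had a log2 difference of -0.03 (interval -0.36 to 0.30) and was not called. Gbp2 (-0.21, -0.67 to 0.25), Gbp3 (-0.35, -0.97 to 0.27) and Gbp7 (-0.12, -0.49 to 0.25) were not called either. In FAD IgG mice Igtp was lower in hippocampus in 4 of 7 mice, and in FAD CD38 mice in 6 of 7.

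**Figure D4:**
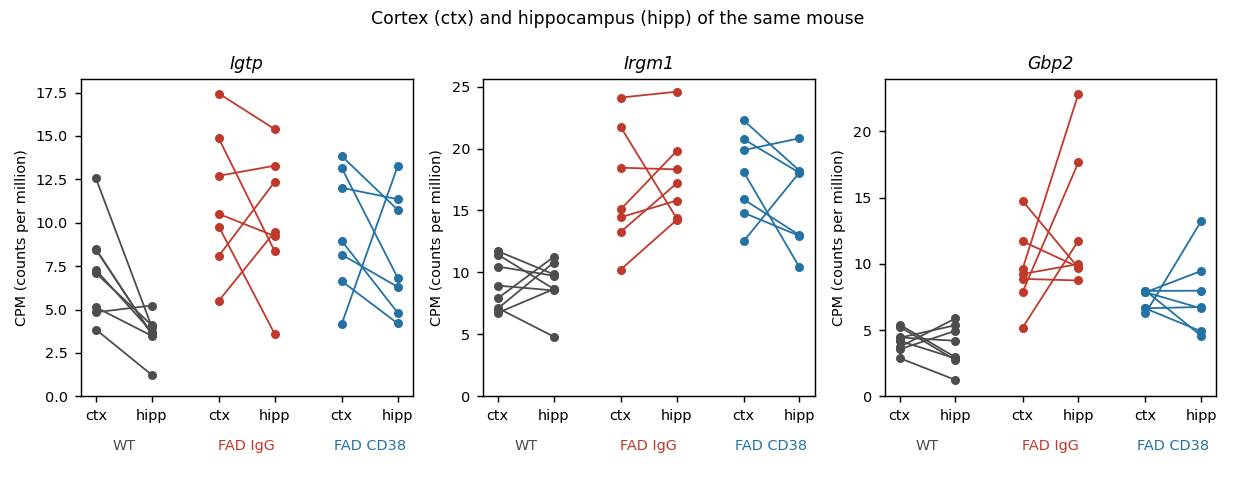
CPM of Igtp, Irgm1 and Gbp2 in cortex (ctx) and hippocampus (hipp) of the same mouse, each line joining the 2 wells of 1 mouse, for WT (grey), FAD IgG (red) and FAD CD38 (blue). For Igtp 7 of 8 WT lines fall from cortex to hippocampus, while FAD IgG lines fall in 4 of 7 mice.

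The difference between FAD IgG and WT was larger in hippocampus than in cortex for Gbp2, Gbp3, Gbp7, Irgm1, Igtp and Iigp1. The median over these 6 was 0.67 on the log2 scale (-0.00978 over all genes). None passed the adjusted test of that difference (limma), which called 0.223% of all genes. Iigp1 did not enter the cortex fit, and it passed the filter here mainly through FAD hippocampal wells, where it is high. Its value, and the count and median that include it, are therefore not support for a larger difference in hippocampus. Igtp (0.76 ± 0.28, adjusted p = 0.403), Gbp2 (0.73 ± 0.27, adjusted p = 0.403), Gbp7 (0.60 ± 0.23, adjusted p = 0.449) and Iigp1 (0.84 ± 0.38, adjusted p = 0.588) were the 4 at an unadjusted p under 0.05 in limma. Irgm1 (0.09 ± 0.21) and Gbp3 (0.20 ± 0.32) were close to 0. For FAD CD38 against FAD IgG the difference between regions called 0% of all genes and 0 of 6 members, with 1 at an unadjusted p under 0.05, Gbp7 at -0.69 (interval -1.17 to -0.21, adjusted p = 1, limma).

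How the members varied together from well to well was described by the correlation of each pair. With group and pool means removed, the correlation of log2 levels was above 0 for 15 of 15 pairs in 22 hippocampal wells, from 0.101 to 0.727 with a median of 0.414, and highest for Gbp2 with Igtp. In 23 cortical wells 6 of 10 pairs were above 0, from -0.598 (Gbp7 with Igtp) to 0.658 (Irgm1 with Igtp), with a median of 0.0338. These are descriptions over wells that share pools and depth, and the 2 sets of pairs differ by Iigp1, which was tested only in hippocampus. Pairs of other genes were not computed, so the shares of pairs above 0 have no background to be set against. Among the genes outside the family with the highest mean correlation with the members in hippocampus were Ltbp1, Igsf3, Pwwp3a and Zfyve1 (mean r of 0.595 to 0.536). In cortex they included Rnf138, Gm19410, Cdk5rap1 and Frmpd3 (0.356 to 0.318).

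The level of each gene in cortex was also compared with its level in hippocampus of the same mouse. Over the 14 FAD mice (IgG and CD38 together), 0 of 8 genes had a correlation that passed adjustment over the 8. Gbp3 had the highest, with Pearson's r of 0.593 (permutation p = 0.0282, adjusted p = 0.226), Spearman's rho of 0.692 (permutation p = 0.00747, adjusted p = 0.0598) and r of 0.506 without the 2 mice farthest from the cortex median. Gbp7 followed with r of 0.477 (permutation p = 0.0833, adjusted p = 0.333) and rho of 0.578 (permutation p = 0.0337, adjusted p = 0.135). The other 6 had r from 0.0817 to 0.363. After removal of group and pool means Gbp3 had r of 0.799 and Igtp r of -0.673.

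Other interferon-induced GTPases were mostly too low to test. Of 26 further Gbp, Irg, Tgtp, Gvin and Mx genes listed, 14 were in the table and 5 were tested in each region. For FAD IgG against WT 0 were called in cortex and 1 in hippocampus, Gm4070 (log2 change 1.60 ± 0.31, adjusted p = 0.00196, edgeR), a very large interferon-inducible GTPase gene, with 0.573, 1.51 and 2.25 CPM in WT and 3.01, 4.62 and 5.96 CPM in FAD IgG. Gm4070 had 40 counts over the 8 WT hippocampal wells and, like Gvin1, did not pass the filter on low counts in WT wells alone, so that it entered the test through the FAD groups. Gvin1, of the same type, had log2 differences of 1.33 ± 0.39 in cortex (adjusted p = 0.0612, edgeR) and 1.60 ± 0.48 in hippocampus (adjusted p = 0.0624, edgeR). Near-identical copies of these genes exist, and the sources used here do not state how reads shared between copies were counted. Tgtp2, an effector Irg with a close copy, had 0.45 in cortex and 1.08 in hippocampus (adjusted p = 0.592 and 0.116, edgeR), and its FAD CD38 to FAD IgG difference was -1.04 ± 0.38 in cortex (adjusted p = 1, edgeR). Irgq, another gene of the Irg family, had -0.30 and -0.01 (adjusted p = 0.239 and 0.989, edgeR), and Gm12185 0.14 and 0.30 (adjusted p = 0.752 and 0.517, edgeR).

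Of 16 genes of interferon gamma and its signalling, 13 were in the table and 7 were tested, of which 0 were called in cortex and 3 higher in hippocampus for FAD IgG against WT. Irf1, a transcription factor induced by interferon, had 1.63, 2.98 and 4.01 CPM in WT hippocampus and 3.34, 5.17 and 8.94 CPM in FAD IgG. The ranges overlapped. Irf1 passed the filter on low counts in hippocampus only with FAD wells, and its call and the count of 3 carry that limit. It had a log2 change of 0.97 ± 0.27 (adjusted p = 0.0444, edgeR), and the receptor chain Ifngr1 one of 0.68 ± 0.15 (adjusted p = 0.00836, edgeR). In cortex the values were 0.55 for Irf1 and 0.37 for Ifngr1 (adjusted p = 0.385 and 0.453, edgeR). The other receptor chain Ifngr2 (-0.01 in cortex and -0.17 in hippocampus), the kinases Jak1 (0.21 and 0.19) and Jak2 (-0.03 and 0.12) and the phosphatase Ptpn2 (0.12 and 0.15) were not called in either region. For FAD CD38 against WT, Ifngr1 (0.58 ± 0.15, adjusted p = 0.0222, edgeR) was called in hippocampus and Irf1 (0.61 ± 0.28, adjusted p = 0.27, edgeR) was not, and none of the 7 was called between FAD CD38 and FAD IgG.

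Genes of the type I interferon response were called in both regions. Of the interferon-stimulated genes, 13 passed the filter on low counts in WT wells alone, taken over both regions together. For FAD IgG against WT 12 of these 13 were higher in cortex (median log2 change 1.27) and 12 of 13 in hippocampus (1.76). A gene can pass this filter on the WT wells of 1 region, as Gbp3 did over both regions together. The counts in this paragraph may therefore still hold genes that needed FAD wells within a region. A further 6 genes in cortex and 5 in hippocampus, Ifit2, Oasl2 and Rsad2 among them, entered the test through the FAD groups, and 3 and 5 of them were called higher. Those of smallest p were Lgals3bp (2.53), Ifit3 (1.64) and Ifitm3 (1.17) in cortex, and Ifi27l2a (3.55), Bst2 (2.02) and Lgals3bp (2.82) in hippocampus. Of the type I signalling genes that passed in WT wells alone 3 of 7 rose in cortex, Irf9 (1.46) and Tmem173 (1.06) among them, and 4 of 7 in hippocampus, with Irf9 at 1.66. Usp18 (2.16 in cortex and 3.01 in hippocampus) and Irf7 (1.08 and 1.75) were also called in both regions, and they entered the test through the FAD groups. Immunoproteasome and peptide-loading genes rose in 4 of 8 cases in cortex, counted in the same way, with B2m (1.56), Psmb8 (1.61) and Tapbp (0.59) first, and in 5 of 8 in hippocampus, with Psmb8 (1.995), B2m (1.98) and Psmb9 (1.71) first. Of the inflammasome genes, Pycard rose in cortex (1.63), where 1 of 4 tested was called, and Pycard (2.23) and Casp1 (1.07) in hippocampus, where 2 of 3 were. Gsdmd and Casp1 in cortex (0.89 and 0.40) and Il18 in hippocampus (-0.05) were not called.

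The ATG8 conjugation machinery helps to bring Gbp and Irg proteins to their target membranes. The list of genes taken for it also holds other autophagy genes, Sqstm1, Becn1 and Ulk1. No gene of the list was called for FAD IgG against WT in either region: 0 of 14 in cortex (median log2 difference -0.04) and 0 of 14 in hippocampus (-0.07). Those of smallest p were Atg7 (0.36), Gabarapl2 (-0.27) and Atg12 (-0.25) in cortex, with adjusted p of 0.167 to 0.284 in edgeR. In hippocampus they were Gabarapl2 (-0.28), Gabarapl1 (-0.35) and Gabarap (0.24), with adjusted p of 0.185 to 0.384 in edgeR. For FAD CD38 against WT 1 of the 14 was called higher in cortex, where 3.3% of all genes were, and 0 of 14 in hippocampus. The 1 call was Sqstm1 (0.36, adjusted p = 0.0498, edgeR), which is not a conjugation gene.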

How the data were processed

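The authors deposited whole-number raw counts for each gene symbol in each well, per the file headers. The submitters' processing notes name bcl2fastq 2.17 and STAR 2.5.3a, and the sources used here do not state the build, the annotation, the counting program or how molecular identifiers were handled. Groups came from the deposited sample sheet. Each deposited sample is a pool, and the replicate was the mouse. No pair of replicates was alike within counting noise (lowest chi-square per degree of freedom 2.738 over 148 pairs).

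Each region was fitted with edgeR 4.0.16 in R 4.3.3: quasi-likelihood with robust estimation, TMM scaling, filterByExpr (at least 10 counts in about as many wells as the smallest group holds, and 15 in all), the 3 groups in 1 fit and pool as an additive term. Calls were made at an adjusted p (Benjamini-Hochberg over all genes tested) under 0.05, two-sided. Differences and means over regions used voom in limma 3.58.1, with the wells of 1 mouse correlated at 0.256, and WT hippocampus against cortex used edgeR with 8 mice as blocks. CPM divides by all counts of a well. Correlations used log2 CPM with a prior count of 2 and 100000 permutations. Alternatives were DESeq2 1.42.0, RLE scaling, other filters on low counts, no pool term, fits of only 2 groups and each pool left out, for limma also sample quality weights and no mouse block, and for correlations a prior count of 0.5 or group and pool means removed. Added later, with the data known, were the mouse of conflicting labels put in either FAD group, and the wells with over 10% ribosomal RNA counts left out. The code was tested on simulated data.

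Named were all members, every tested gene of the interferon gamma and other GTPase lists, the 3 genes of smallest p in each other pathway list for FAD IgG against WT, and the 5 genes most alike in each region; a few of them are not reported here. Members and lists were chosen with earlier results of these data known. Promoters are from RefSeq (GRCm38.p6), and transcript ends from GENCODE were searched for stretches shared between genes.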

Additional observations from a re-analysis of the deposited data

Results flagged for a closer look

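In 48 sets of 7 to 9 wells (8 genes, 3 groups, 2 regions), the most extreme well stood apart by Dixon's ratio in 6, and chance alone marks about 1 set in 20. The highest WT hippocampal well for Gbp3 had 6.52 CPM against 2.95 CPM in the next, and it is the well that made the WT and FAD IgG ranges overlap. The lowest FAD CD38 hippocampal well for Gbp7 had 4.65 CPM against 9.10 CPM in the next. The lowest WT hippocampal well for Irgm1 had 4.83 CPM against 8.54 CPM. For Igtp the lowest WT hippocampal well had 1.23 CPM (1.235) against 3.48 CPM, and that well also had the highest ribosomal RNA share of all, 20.6%. Iigp1 in cortex had 1 high well in FAD IgG, 5.33 CPM against 2.72 CPM, and 1 in FAD CD38, 5.08 CPM against 2.89 CPM.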

How the results depend on the processing

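Of 750 values of single members under alternatives, 676 kept their direction and their side of the threshold, 33 lost a call, 14 gained one and 27 changed sign, all 27 being values that were never called. For FAD IgG against WT the count of members called stayed at 3 in cortex in each alternative and ran from 4 to 7 in hippocampus, the 7 coming from Gbp5 with no filter on low counts. For FAD CD38 against WT it was 1 in cortex without each of pools 6, 7, 8 and 10, against 3, and in hippocampus 1 without pool 5, 2 without pool 11 and 2 with only the 2 groups compared, against 4. For FAD CD38 against FAD IgG it was 0 in each alternative. The number of genes whose levels correlated between regions was 2, against 0, once group and pool means were removed, and those permutation p-values ignore the degrees of freedom spent on the means.

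The sign changes were as follows, as log2 differences. Between the FAD groups, Irgm1 in cortex went to -0.0220 without pool 7 and to -0.0623 without wells of high ribosomal RNA share. In hippocampus Iigp1 went to 0.0295 without pool 6, to 0.002045 without pool 9 and to 0.009754 without wells of high ribosomal RNA share, and Gbp7 to 0.005657 without pool 9. Over the mean of both regions, Gbp7 went to 0.0607 with no pool term and to 0.191 without pool 9, and Iigp1 to 0.168, 0.0366 and 0.124 without pools 6, 8 and 9. For the region difference of FAD IgG against WT, Gbp3 went to -0.0678 without pool 5 and Irgm1 to -0.0233 without pool 9. For that of FAD CD38 against FAD IgG, Igtp went to 0.0161 with quality weights, to 0.0426 with no pool term and to 0.0974, 0.1395 and 0.126 without pools 6, 9 and 10. Iigp1 went to 0.159 and 0.0619 without pools 5 and 10, and Gbp3 to -0.0163, -0.0195, -0.0607 and -0.0553 without pools 6, 8, 9 and 11. For WT hippocampus against cortex, Irgm1 went to 0.0443, 0.02495 and 0.009688 without pools 5, 9 and 10. The cause was not tested for any of these.

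No alternative moved the WT difference of Igtp between regions across the threshold. Iigp1 was tested in 14 of 16 alternatives. Totals of 1270918 to 5101368 counts leave Gbp5, Irgm2 and Iigp1 with few counts per well, and differences of these genes are the least precise.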

Other observations

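The mouse of pool 8 whose well name and sample sheet disagree entered no comparison. Its hippocampus held 23.0 CPM of Gbp2, 9.78 CPM of Gbp3, 6.33 CPM of Gbp5, 25.9 CPM of Gbp7 and 25.9 CPM of Irgm1, as well as 6.90 CPM of Irgm2, 27.0 CPM of Igtp and 14.4 CPM of Iigp1. Its cortex held 11.6 CPM of Gbp2, 8.23 CPM of Gbp3, 1.56 CPM of Gbp5, 14.2 CPM of Gbp7, 22.5 CPM of Irgm1, 2.002 CPM of Irgm2 (9 counts), 14.5 CPM of Igtp and 3.56 CPM of Iigp1. The hippocampal well had 1738997 counts in all.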
